A study of Rattus norvegicus with 15 samples.

Results

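Gene expression in retinas of rats given sodium iodate (NaIO3) and an intravitreal vehicle injection, the Sham group, was compared with that in healthy, no-treatment (NT) retinas. There were 3 Sham and 3 NT libraries, 6 of the 15 libraries in the series, and all the genes listed were examined rather than a chosen pathway. Of 20375 genes listed, 15382 (75.5%) were tested, namely those whose regularized log (rlog) values averaged 3.32 or more, equal to 10 before taking the logarithm, over these 6 libraries. The rlog value is a log2 expression value that is corrected for library size and pulled toward the mean of its gene, so differences between groups are smaller than they would be in read counts.

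All rats were wild-type Sprague-Dawley, an albino strain, labelled as 12 weeks old, and the retinas were labelled as taken on day 31 after transplantation, the NT eyes included. The Sham rats received NaIO3 systemically at 40 mg/kg, and per the study's methods their right eye had been injected 4 days earlier with 2 μl of Hank's balanced salt solution without cells. The NT rats were healthy and received neither. The operation included anesthesia, a puncture of the cornea and eye drops that contained dexamethasone, so NaIO3 and the procedure cannot be told apart in this comparison. The labels give immunosuppressants for rats with xenografts and do not name them for Sham. The study's methods describe systemic dexamethasone before transplantation and cyclosporin A after it without naming the groups. Whether Sham rats received them is thus not known, and any effect of them cannot be told apart here either. The design text of the series calls the rats 31 days old, which does not match the age labels, and the age labels are used here. Nothing in the labels ties a library to an animal, so the p-values measure the spread between these libraries. The other 9 libraries came from NaIO3 retinas injected with mesenchymal stem cells (MSC), with MSC expressing erythropoietin (MSC-EPO) or with dental pulp stem cells (DPSC), and they are used only where a value of the Sham group is set beside them.

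NaIO3 is an oxidant that injures the retinal pigment epithelium (RPE), the cell layer that feeds photoreceptors, recycles their visual pigment and clears their shed outer segments, and photoreceptors above the injured epithelium then degenerate. Müller glia, the radial support cells of the retina, answer such damage with reactive gliosis, in which intermediate filaments such as GFAP accumulate. Microglia, the resident macrophages, become activated and move toward the outer retina.

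A gene was called a differentially expressed gene (DEG) when its adjusted p in limma was under 0.05 and its group means differed more than 2-fold. A total of 153 DEGs were higher in Sham (0.995% of the genes tested) and 24 were lower (0.156%). By the adjusted p alone, 785 genes passed the test as higher (5.1%) and 546 as lower (3.55%). The 3 values of one group lay wholly above the 3 of the other for 2550 genes that were higher in Sham (16.6%) and 2366 that were lower (15.4%), which includes all 177 DEGs. The median difference over all genes tested was 0.0047 on the log2 scale, so the gene lists below can be read against a background near 0. Counts of list genes that passed can be read against the shares of 5.1% as higher and 3.55% as lower.

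**Figure D1:**
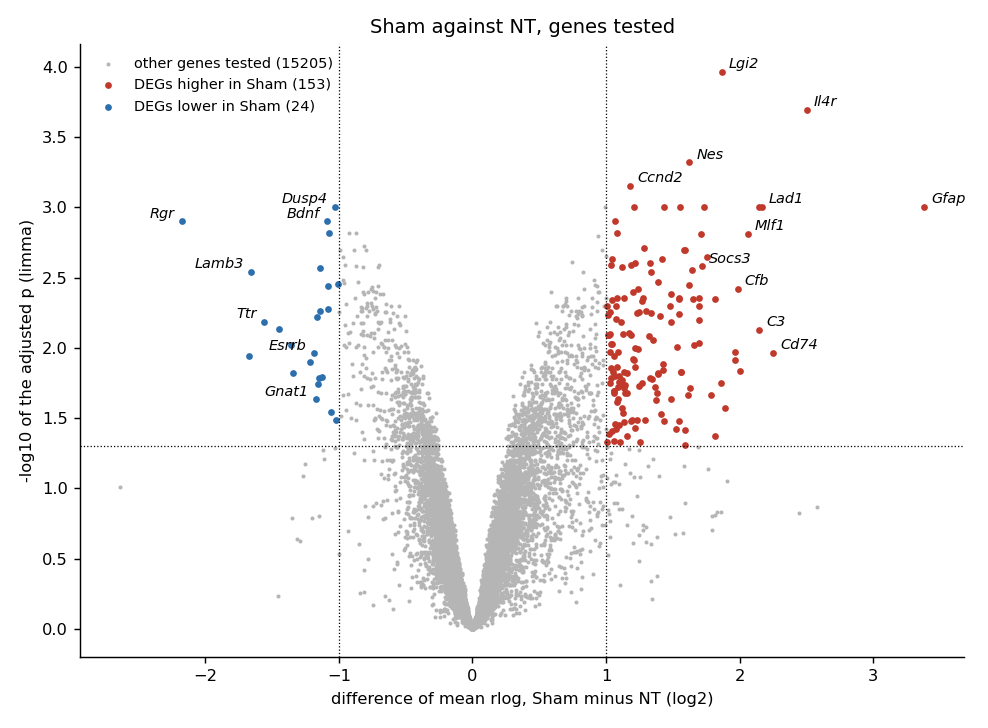
Volcano plot of the 15382 genes tested, with the difference of mean rlog, Sham minus NT, on the horizontal axis and -log10 of the adjusted p on the vertical axis. Dotted lines mark an adjusted p of 0.05 and a 2-fold difference. The 153 DEGs that were higher (red) outnumber the 24 that were lower (blue), with Gfap farthest to the right at 3.38 and Rgr farthest to the left among DEGs at -2.17.

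The libraries lay on one scale, with a median rlog of 8.69 to 8.75. In a principal component analysis of the 500 most variable genes, PC1 held 58.0% of the variance, with the 3 NT libraries below 0 on this axis and the 3 Sham libraries above it. Defining markers of the retina were present in every library, and those of T cells (Cd3e, 4.06 to 4.44) and B cells (Ms4a1, 3.91 to 4.13) were near the lower limit for testing. Markers of the tissues in front of the retina moved with the groups. The summed level of 16 tested lens genes, as a log2 value, was 12.4 to 15.4 in NT and 15.5 to 16.3 in Sham, without overlap. That of 10 tested genes of cornea and surface epithelium was 10.4 to 11.1 in NT and 11.1 to 12.5 in Sham, with Sham replicate 1 inside the NT range. Kera, which defines corneal stroma, was near 0 in all 6 libraries.

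With the level of the epithelium list as a covariate, an alternative added after the data had been seen, 26 DEGs were higher and 6 lower, and with the level of the lens list 42 and 12. The 177 DEGs kept their direction in both fits. Each such fit leaves 3 degrees of freedom among 6 libraries. The part of these tissues in the results below was not tested beyond these fits. Their counts for many of the lists are given with the list or near the end.

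The gene with the largest rise was a marker of reactive glia. Gfap, the intermediate filament of reactive Müller glia and astrocytes (ENSRNOG00000002919), had rlog values of 9.64, 10.08 and 9.43 in NT and 12.95, 13.53 and 12.80 in Sham. Each Sham library lay above each NT library, and the group means differed by 3.38 ± 0.22 (SE), or 10.4-fold (adjusted p = 0.000993). Gfap passed the test under all 16 alternative settings. Of 25 reactive gliosis genes, all of which were tested, 18 passed, each as higher and 14 of them as DEGs, and the median difference was 1.35. Since whole retina was sequenced, fewer or more cells of a type and less or more RNA per cell cannot be told apart.

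The other intermediate filaments of reactive glia moved the same way. Nes, encoding nestin, rose from 6.34 to 6.45 in NT to 7.97 to 8.07 in Sham (adjusted p = 0.000478). Vim, encoding vimentin, rose by 0.89 ± 0.17 (SE, adjusted p = 0.021). The spread of Nes within each group was at most 0.06 (SD, n = 3).

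Among secreted and acute phase products on this list, Timp1, an inhibitor of matrix metalloproteinases, rose by 1.75 (adjusted p = 0.00226). A2m, encoding the protease scavenger α2-macroglobulin, rose by 1.62, Lcn2, encoding the iron-siderophore carrier lipocalin 2, by 1.40 and Cp, encoding the ferroxidase ceruloplasmin, by 1.39. Edn2, encoding endothelin 2, a signal released by injured photoreceptors, was 5.15 to 5.32 in NT and 6.37 to 6.69 in Sham. Fgf2, a survival factor for photoreceptors, was 5.96, 6.34 and 5.98 in NT and 7.95, 7.45 and 7.81 in Sham. Both groups of libraries were apart for each of these 6 genes. The 7 genes that did not pass were Emp1 (1.35), Cryab (0.93), Steap4 (0.64), Cd44 (0.54), Cebpb (0.46), Tnc (0.17) and Ptx3 (0.05), all with positive differences. Emp1 and Cd44 are also expressed in surface epithelia.

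Genes of the healthy Müller cell state were read next. Of 12 such genes tested, 2 passed, both as higher, against 5.1% of all genes tested. Without NT replicate 1 the count in limma was 0, with 4 genes at an unadjusted p under 0.05 as higher, and without Sham replicate 3 it was 3. Clu, encoding the secreted chaperone clusterin, rose by 1.05, and Apoe, the lipid carrier, was 14.11 to 14.56 in NT and 15.21 to 15.80 in Sham. The Müller markers Slc1a3 and Rlbp1 moved in opposite directions, with groups apart for each. Slc1a3 was 12.86 to 12.99 in NT and 13.12 to 13.65 in Sham, without passing (adjusted p = 0.0743). Rlbp1 was 13.13 to 13.42 in NT and 12.83 to 13.07 in Sham. Glul, encoding the glutamine synthetase that clears glutamate, differed by -0.10 with overlapping groups (adjusted p = 0.674), Aqp4 by -0.02 and Kcnj10 by -0.01. The water and potassium channels encoded by the last 2 genes are the usual markers of Müller cell homeostasis.

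**Figure D2:**
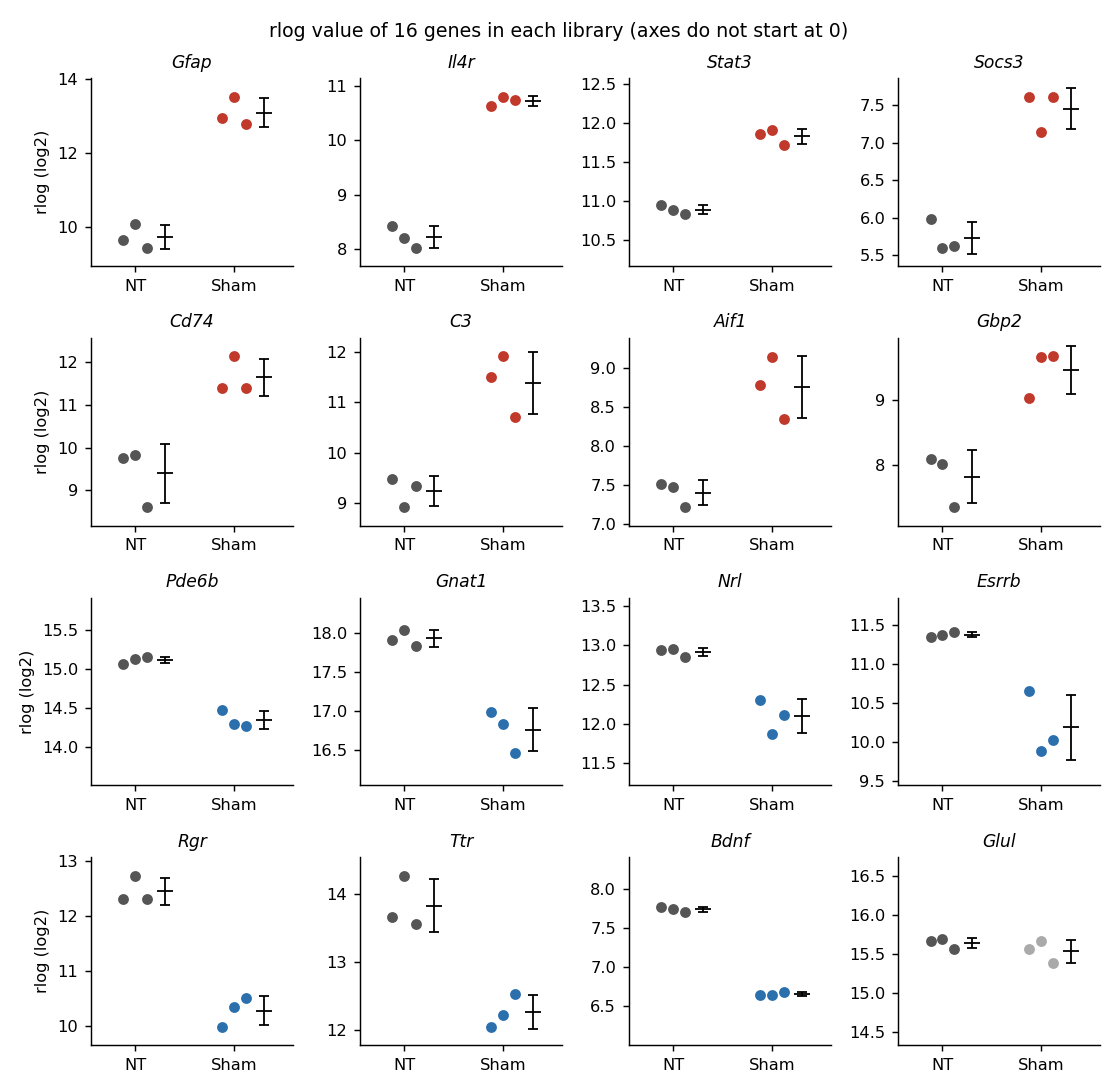
rlog value (log2) of 16 genes in each of the 3 NT and 3 Sham libraries, with the mean and SD beside the points, and with axes that do not start at 0. Sham points are red for genes that passed as higher, blue for genes that passed as lower and light grey for Glul, which did not pass. Only for Glul do the groups overlap.

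Receptors and transcription factors that are known to act upstream of gliosis rose in part. Of 25 tested genes of gp130 cytokine, IL-4 receptor and STAT signaling, 10 passed, each as higher, against 5.1% of all genes tested. Stat3, Socs3 and Osmr are on the gliosis list too, so the counts of these lists are in part the same genes. Il4r, the receptor chain for IL-4 and IL-13 (ENSRNOG00000015441), was 8.43, 8.21 and 8.03 in NT and 10.63, 10.80 and 10.74 in Sham. The difference of 2.50 ± 0.11 (SE), or 5.66-fold, was the second largest rise among DEGs (adjusted p = 0.000203), and it passed under all 16 alternatives.

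The pathway can be read by the roles of its members. Among ligands, Lif (0.68), Clcf1 (0.66) and Cntf (0.65) passed, while Il6, Osm and Il11 were below the level for testing and Ctf1 differed by 0.06. Among receptors, Osmr, which binds oncostatin M, rose by 1.65, Il6r by 0.73 and Il6st, the gp130 chain that all these ligands share, by 0.44, while Lifr (-0.07) and Cntfr (0.05) did not pass.

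Of the transducers, Stat3 was 10.95, 10.88 and 10.83 in NT and 11.86, 11.90 and 11.72 in Sham, a rise of 0.94 ± 0.08 (SE, adjusted p = 0.00161). Stat6, which IL-4 activates, differed by 0.49 without passing (adjusted p = 0.0509). Jak1, Jak2 and Tyk2 differed by 0.06, 0.07 and 0.03. Jak3, a kinase of the common gamma chain receptors that was not on the list and was picked after its values were seen, rose by 1.49, from 6.98 to 7.26 in NT to 8.30 to 8.94 in Sham.

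Downstream of STAT3, Socs3, the feedback inhibitor of gp130, was 5.98, 5.60 and 5.62 in NT and 7.60, 7.14 and 7.61 in Sham, a rise of 1.72 ± 0.16 (SE). On the gliosis list, Bcl3, a co-activator of NF-κB, rose by 1.59 and Cebpd, an acute phase transcription factor, by 1.43. Socs1 (-0.06) and Cish (-0.10), feedback inhibitors induced by other STATs, did not pass. Socs3, Cebpd and Bcl3 passed under all 16 alternatives. With the surface epithelium level as a covariate, 6 gliosis genes and 2 genes of the signaling list passed, and in a fit of 12 libraries, which adds the MSC and MSC-EPO groups to the estimate of the spread, 11 and 3.

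The promoter windows of gliosis genes were read for a STAT motif. RefSeq windows of the GRCr8 assembly, each 300 bases long with 250 before and 50 after the start of the gene, were matched by symbol to 11025 of 15304 tested symbols. These coordinates belong to GRCr8 and not to the Rnor_6.0 build behind the expression values. The motif TTCNNNGAA, searched on both strands, was present in 4 of 22 gliosis windows (Fgf2, Serpina3n, Emp1 and Steap4), or 18.2%, in 2 of 17 of the signaling list (Cish and Socs1, neither of which passed), and in 8.68% of all 27457 windows. It was also present in 6.54% of windows of genes tested and in 8.49% (9 of 106) of those of DEGs that were higher. For DEGs that were lower the motif was in 15.8% (3 of 19), and for the interferon-stimulated genes below in 25% (6 of 24). Its matches share bases with a match of the AP-1 motif TGANTCA in 0.0364% of all windows and with one of the interferon motif described below in 0.0473%.

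The 250 bases before the start are shown for Gfap, which had the largest rise and holds none of the 4 motifs searched in its window (chr10:88361662-88361911, minus strand), and for Fgf2, a DEG with a match (chr2:122164204-122164453, plus strand). Capitals mark the match to TTCNNNGAA, which begins at position -128 from the start of Fgf2. The sequences, from RefSeq, run 5′ to 3′ toward the gene.
Gfap: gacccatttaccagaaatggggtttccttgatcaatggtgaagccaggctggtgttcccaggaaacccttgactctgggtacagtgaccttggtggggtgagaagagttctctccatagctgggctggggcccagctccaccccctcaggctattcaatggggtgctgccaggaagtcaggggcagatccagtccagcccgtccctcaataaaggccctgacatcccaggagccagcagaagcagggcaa
Fgf2: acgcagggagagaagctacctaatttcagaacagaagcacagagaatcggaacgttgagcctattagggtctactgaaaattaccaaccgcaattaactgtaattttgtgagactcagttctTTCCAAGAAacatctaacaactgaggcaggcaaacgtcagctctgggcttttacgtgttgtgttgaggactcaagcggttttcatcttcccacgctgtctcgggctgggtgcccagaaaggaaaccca
A match is a string of letters and does not show that a STAT protein binds there, and the absence of one says nothing of sites outside the window.

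Microglial genes rose as a group. Of 25 microglia and macrophage genes, all tested, 17 passed, each as higher, 14 were DEGs, and the median difference was 1.13. Aif1, encoding the microglial protein IBA1, was 7.51, 7.47 and 7.22 in NT and 8.77, 9.13 and 8.34 in Sham. Csf1r, the receptor on which microglia depend for survival, was 9.31, 9.67 and 9.21 in NT and 10.54, 10.88 and 9.89 in Sham. Sham replicate 3 was the lowest Sham library for both genes, and both groups stayed apart.

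Homeostatic and activation markers rose side by side. P2ry12, a purine receptor of resting microglia, rose by 1.14, Tmem119 by 0.93 and Cx3cr1, the fractalkine receptor, by 1.13. Among genes of phagocytic microglia, Lgals3, encoding galectin 3, rose by 1.70, Itgam, encoding CD11b, by 1.56, Ctss, encoding the protease cathepsin S, by 1.42 and Trem2, a lipid receptor, by 1.24. Cx3cr1 passed in only 1 of the 6 fits with a library left out, while Aif1, Lgals3 and Trem2 passed in all 6.

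Spp1 (0.64), Gpnmb (1.30), Mrc1 (0.30), Cd163 (0.28) and Msr1 (0.10) did not pass. The first 2 mark lipid-laden microglia and the last 3 perivascular or scavenging macrophages. Outside the list, Csf1, the ligand of the receptor above, rose by 1.02 and Axl, a receptor for dying cells, by 1.49. With the surface epithelium or the lens level as a covariate, 0 genes of the microglial list passed in limma, while 16 and 20 had an unadjusted p under 0.05 as higher. With 12 libraries in one fit 2 passed.

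Genes of complement, the protein cascade that tags cells for removal, were higher. Of 22 genes tested, 13 passed, each as higher, with a median difference of 0.94. C3, the point where the complement routes meet, was 9.48, 8.90 and 9.33 in NT and 11.51, 11.92 and 10.71 in Sham, or 4.42-fold higher (adjusted p = 0.00745). Cfb, the protease of the alternative route, was 8.59, 8.31 and 8.14 in NT and 9.85, 10.66 and 10.48 in Sham. Both groups were apart for each gene, with the lowest Sham value of C3 in replicate 3.

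In the classical route, C1qa, C1qb and C1qc, made by microglia, rose by 1.56, 1.53 and 1.16, C1s by 1.81, C1r by 1.33 and C4b by 0.95. C4a rose by 0.93, though C4a and C4b are near-identical copies between which reads may be divided unevenly. Serping1, which inhibits C1r and C1s, rose by 1.69. The receptors C3ar1 and C5ar1 rose by 0.60 and 0.40. C7, a part of the membrane attack complex, rose by 1.17, while C5 and C6 were below the level for testing. Membrane regulators that protect host cells did not pass, with differences of -0.04 for Cd55, -0.01 for Cd46 and -0.27 for Cd59. On this list 9 to 12 genes passed with 1 library left out and 1 with 12 libraries in one fit. With the surface epithelium covariate 0 passed in limma and 12 had an unadjusted p under 0.05.

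Antigen presentation genes of both classes were higher. For MHC class II, 9 entries were tested, of which 6 passed as higher and 1 as lower, with a median difference of 1.55. Cd74, encoding the invariant chain, was 9.76, 9.83 and 8.60 in NT and 11.39, 12.14 and 11.40 in Sham, a rise of 2.25 ± 0.34 (SE). RT1-Db1, RT1-Da, RT1-Ba and RT1-Bb, which encode class II chains, rose by 2.00, 1.97, 1.96 and 1.55. NT replicate 3 was the lowest library for each of these 5 genes, and both groups stayed apart. Ciita, the master regulator of class II genes, was the member that fell, by 0.53 (7.88, 8.04 and 7.74 in NT, 7.31, 7.57 and 7.20 in Sham). RT1-DMb, for peptide exchange, rose by 0.77. Cd74 and the 4 chain genes passed in each of the 6 fits with a library left out. With 12 libraries in one fit 0 genes of the list passed in limma and 4 had an unadjusted p under 0.05 as higher.

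For class I and peptide loading, 6 of 17 genes passed, each as higher. Nlrc5, the class I counterpart of Ciita, rose by 0.80, B2m, the light chain, by 0.82, Psmb8, an immunoproteasome subunit, by 0.83 and Tap1, a peptide pump, by 0.59. RT1-CE10, a class I heavy chain, rose by 1.54. RT1 genes are close copies of one another, so reads may be assigned to the wrong member, and the values of single RT1 genes are uncertain to that extent. Left out 1 at a time, the libraries gave 1 to 6 passing genes on this list. In the fits with the surface epithelium and the lens covariate 0 passed in limma, while 5 and 9 had an unadjusted p under 0.05.

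Interferon-stimulated genes were higher. Of 34 tested, 18 passed, each as higher, with a median difference of 0.69, and 5 were DEGs. Mx1 and Mx2, antiviral GTPases, rose by 1.48 and 1.43, Gbp2, a guanylate-binding protein, by 1.66 and Rsad2, encoding viperin, by 1.13. Irf9, which joins STAT proteins in the interferon response, was 8.06, 7.99 and 8.15 in NT and 8.94, 8.91 and 8.84 in Sham. Mx2 was spread within Sham, at 8.97, 9.70 and 10.36, against 8.06 to 8.49 in NT. Isg15 (0.63) and Ifit1 (1.02) did not pass, and their groups overlapped. The number that passed ranged from 7 without NT replicate 3 to 20 without Sham replicate 1, and it was 0 with 12 libraries in one fit and 0 with the surface epithelium covariate. In those limma fits 17 and 8 genes of the list had an unadjusted p under 0.05.

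A motif of GAAA, any 2 bases and GAAA again, part of the element through which interferon acts on promoters, was present on either strand in 16 of 24 windows of this list (66.7%), against 3.77% of all windows and 9.43% (10 of 106) of the windows of DEGs that were higher. Genes enter such a list because interferon induces them, so the share describes the list and does not test it. Gbp2 (chr2:234005477-234005726, plus strand) and Bst2, encoding the virus tether tetherin (chr16:18254968-18255217, minus strand), which rose by 0.76, are shown because their matches lie close to the start or overlap one another, a choice made after the matches were seen. Capitals mark the matches, which begin at position -31 from the start of Gbp2 and at -131 and -125 from that of Bst2, in RefSeq sequence of GRCr8.
Gbp2: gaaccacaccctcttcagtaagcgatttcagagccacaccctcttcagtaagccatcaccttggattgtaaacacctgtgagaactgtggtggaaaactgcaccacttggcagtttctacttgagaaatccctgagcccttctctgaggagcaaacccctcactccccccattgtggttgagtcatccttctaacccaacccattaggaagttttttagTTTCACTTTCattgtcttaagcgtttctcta
Bst2: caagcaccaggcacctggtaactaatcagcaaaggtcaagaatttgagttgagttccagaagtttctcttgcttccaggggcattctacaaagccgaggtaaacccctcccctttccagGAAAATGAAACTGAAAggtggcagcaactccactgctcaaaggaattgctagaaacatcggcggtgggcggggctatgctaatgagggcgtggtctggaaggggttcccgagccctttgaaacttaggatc

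Inflammatory receptors and cell death genes changed in part. Of 18 genes of NF-κB and Toll-like receptor signaling, 8 passed as higher and 2 as lower. Tlr2 rose by 0.83 and Tlr7 by 0.81, both sensors of microbial or damaged-cell products, and Relb and Nfkb2, subunits of NF-κB, by 0.54 and 0.59. The 2 that fell were feedback inhibitors of NF-κB. Tnfaip3 was 10.88, 11.02 and 10.89 in NT and 10.27, 10.14 and 10.25 in Sham, and Nfkbia fell by 0.33. The number that passed as higher was 2 without NT replicate 3, 3 with the replicate block and 0 with 12 libraries in one fit or with either covariate. In those 3 limma fits 4, 7 (epithelium) and 11 (lens) genes had an unadjusted p under 0.05 as higher.

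Of 17 necroptosis and pyroptosis genes, 8 passed, each as higher. Tnfrsf1a, the TNF receptor that starts necroptosis, rose by 0.93 and the kinase gene Ripk3 by 0.51, while Mlkl, the executioner, differed by 0.29 and Ripk1 by 0.16 without passing. For the inflammasome, Pycard, its adaptor, rose by 0.83, Nlrp3, a sensor, by 0.66, Casp1 by 0.62 and Gsdmd, which forms the pore, by 0.61. Its products Il1b and Il18 each differed by 0.23, without passing. Tnf was below the level for testing. Of 14 apoptosis genes, 2 passed as higher, among them the death receptor gene Fas (0.66), and Xiap, a caspase inhibitor, passed as lower, at 11.97 to 12.09 in NT and 10.94 to 11.49 in Sham. The necroptosis count was 3 without NT replicate 2 or NT replicate 3 and 1 with 12 libraries in one fit. It was 0 in limma with the surface epithelium or the lens covariate, and 5 and 12 genes had an unadjusted p under 0.05.

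Signals that draw in other leukocytes were examined as well. Of 21 chemokine and receptor genes, 4 passed as higher, against 5.1% of all genes tested, among them Cxcl10 (0.71), Cxcl16 (0.72) and Cx3cr1. Ccl2 (0.32), the main attractant of monocytes, and Ccl5 (-0.01) did not pass. The count was 1 without NT replicate 1 or Sham replicate 2, and with 12 libraries in one fit it was 0 in limma, with 1 higher gene at an unadjusted p under 0.05. Of 17 T and NK cell genes, 0 passed as higher in limma, with 1 at an unadjusted p under 0.05. Cd3e, Cd3d and Cd8a, which define T cells, differed by 0.08, 0.06 and 0.05. Of 6 B and plasma cell genes, 0 passed in limma, and 0 had an unadjusted p under 0.05.

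**Figure D3:**
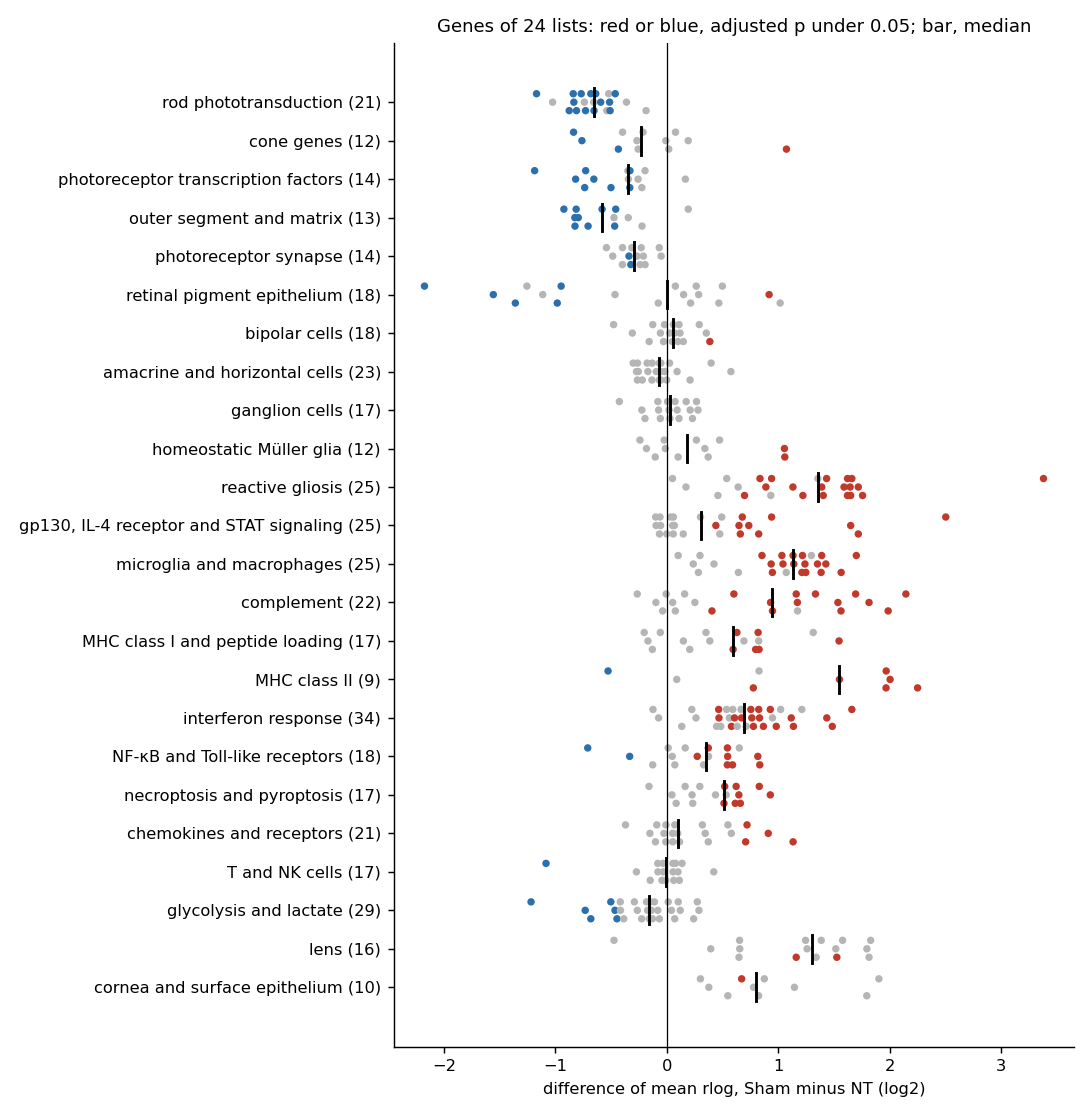
Difference of mean rlog, Sham minus NT, for each tested gene of 24 lists, with the number of tested genes in parentheses. Red and blue points passed as higher and lower, grey points did not pass, and black bars are medians. The medians of the rod lists lie left of 0, those of the gliosis, microglia, complement and MHC class II lists lie to the right at 0.94 to 1.55, and those of inner retinal neurons lie near 0.

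Rod photoreceptor genes were lower. All 21 rod phototransduction genes had negative differences, 14 passed as lower against 3.55% of all genes tested, and the median difference was -0.66. Gnat1, encoding rod transducin (ENSRNOG00000017589), was 17.91, 18.04 and 17.83 in NT and 16.99, 16.83 and 16.45 in Sham, a fall of 1.17 ± 0.23 (SE, adjusted p = 0.0233), and it was the sole DEG of the list.

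Along the rod cascade, Pde6a, Pde6b and Pde6g, the phosphodiesterase subunits, fell by 0.59, 0.77 and 0.81. The channel subunits Cnga1 and Cngb1 fell by 0.83 and 0.51, and Slc24a1, the exchanger that extrudes calcium, by 0.88 with values of 15.08 to 15.18 in NT and 14.23 to 14.27 in Sham. In the shut-off arm, Grk1, a rod kinase, fell by 0.68, Rcvrn, its calcium sensor recoverin, by 0.84 and Rgs9 by 0.51. Sag, encoding arrestin, differed by -0.36 (adjusted p = 0.227) and the guanylate cyclase genes Gucy2e and Gucy2f by -0.54 and -0.74, without passing. Genes from the G protein to the exchanger thus fell. Gngt1, the transducin γ subunit, differed least (-0.19) and was the one member whose groups overlapped.

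Structural genes of the outer segment fell too. Of 13 tested, 9 passed, each as lower, with a median difference of -0.58. Rdh12, which reduces toxic retinal, was 10.40, 10.51 and 10.35 in NT and 9.51, 9.45 and 9.52 in Sham (adjusted p = 0.00153). Rom1, a disc rim protein, fell by 0.81, Rp1, of the axoneme, by 0.80 and Rbp3, the retinoid carrier of the matrix, by 0.82. Abca4 (-0.35) and Prom1 (-0.22) did not pass. Of 14 genes of the photoreceptor synapse, 2 passed as lower, Cacnb2 (-0.34) and Stx3 (-0.32), and all 14 had negative differences. Neither gene passed in any of the 6 fits with a library left out. With 12 libraries in one fit 0 genes of this list passed in limma, and 3 had an unadjusted p under 0.05. With the surface epithelium or the lens covariate 0 passed in limma, and 0 and 3 had an unadjusted p under 0.05.

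Several transcription factors that set rod identity fell. Of 14 tested, 8 passed, each as lower. Nrl, which commits precursors to the rod fate, was 12.94, 12.95 and 12.86 in NT and 12.31, 11.87 and 12.11 in Sham. Crx fell by 0.66, Nr2e3 by 0.73 and Rorb by 0.74. Esrrb, an orphan receptor of rods and a DEG, was 11.35, 11.37 and 11.41 in NT and 10.66, 9.89 and 10.03 in Sham, a fall of 1.19 ± 0.18 (SE). Sham replicate 1 was the highest Sham library for Nrl and Esrrb, and both groups were apart. Otx2 (-0.35), Neurod1 (-0.23) and the cone factor Rxrg (0.17) did not pass.

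The core motif of CRX, TAATCC, was present on either strand in 5 of 16 windows of rod phototransduction genes (31.2%), in 2 of 10 of the outer segment list and in 2 of 11 of the transcription factors, against 7.11% of all windows. It was in 5.28% of windows of genes tested, 7.55% of those of DEGs that were higher and 10.5% (2 of 19) of those that were lower. The 5 rod genes with a match were Cngb1, Guca1a, Pde6a, Gucy2f, which did not pass, and Gngt1, which differed least. Slc24a1, Cnga1 and Pde6b, which fell more than these 5, hold no match in their windows. No overlap with another motif searched was found. No window is shown for Gnat1. Those of Crx (chr1:85681853-85682102, minus strand) and Rbp3 (chr16:9273537-9273786, plus strand) are shown as genes that passed as lower and hold a match, in capitals, at positions -170 and -97 from the start of Crx and -103 from that of Rbp3. Both were chosen after the matches were seen.
Crx: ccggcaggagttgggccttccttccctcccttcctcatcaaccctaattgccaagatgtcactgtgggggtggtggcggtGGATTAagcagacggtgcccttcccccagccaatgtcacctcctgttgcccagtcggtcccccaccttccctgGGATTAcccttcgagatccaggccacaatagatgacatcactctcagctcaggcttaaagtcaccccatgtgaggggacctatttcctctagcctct
Rbp3: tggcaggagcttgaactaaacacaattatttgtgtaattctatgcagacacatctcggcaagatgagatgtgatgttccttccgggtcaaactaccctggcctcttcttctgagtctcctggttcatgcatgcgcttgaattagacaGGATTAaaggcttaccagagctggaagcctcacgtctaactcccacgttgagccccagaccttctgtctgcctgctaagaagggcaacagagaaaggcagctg

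Cone genes changed in both directions. Of 12 tested, 3 passed as lower and 1 as higher. Opn1mw, the green cone opsin, was 8.90, 9.27 and 9.08 in NT and 8.34, 8.21 and 8.19 in Sham, while Opn1sw, the short-wave opsin, differed by 0.19 with overlapping groups. Gnb3, a transducin β subunit shared by cones and ON bipolar cells, rose from 11.60 to 11.81 in NT to 12.61 to 13.07 in Sham, a DEG (adjusted p = 0.00503). The difference between the opsins was not tested.

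The median of the phototransduction list stayed between -0.73 and -0.49 under the 16 alternatives. The number of phototransduction genes that passed was 16 without the trend of the variance on the mean, 6 to 12 with 1 library left out, 6 with 12 libraries in one fit and 3 with 15. With the surface epithelium covariate 0 passed in limma and 11 had an unadjusted p under 0.05. With the lens covariate 1 passed in limma and 18 had an unadjusted p under 0.05. Gnat1 passed in 3 of the 6 fits with a library left out. On the outer segment list, 5 genes passed without NT replicate 2, 2 with 12 libraries and 1 with 15 or with the lens covariate, and with the epithelium covariate 0 passed in limma and 8 had an unadjusted p under 0.05. Of the transcription factors, 4 passed without any one NT library, 2 with 12 libraries and 1 with 15. With the epithelium or the lens covariate 0 of them passed in limma, and 4 and 10 had an unadjusted p under 0.05.

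A few RPE genes fell. Of 18 tested, 5 passed as lower and 1 as higher, and the median difference was -0.0012. This median was not stable, at -0.37 without NT replicate 3, 0.16 without NT replicate 2 and -0.69 with the surface epithelium covariate. The number that passed as lower was 3 to 7 with 1 library left out (7 without Sham replicate 3), 2 with the epithelium covariate and 1 with that of the lens, and with 12 libraries it was 0 in limma with 4 at an unadjusted p under 0.05. Rgr, an opsin of RPE and Müller cells that regenerates chromophore (ENSRNOG00000012396), was 12.30, 12.74 and 12.30 in NT and 9.98, 10.35 and 10.50 in Sham. This fall of 2.17 ± 0.16 (SE, adjusted p = 0.00126) was the largest among DEGs. Ttr, encoding the retinol and thyroxine carrier transthyretin, was 13.65, 14.26 and 13.55 in NT and 12.04, 12.22 and 12.53 in Sham. Both genes passed in all 6 fits with a library left out, and neither did with 12 libraries in one fit, where the adjusted p of limma was 0.163 for Rgr and 0.53 for Ttr.

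Slc16a8, the lactate exporter of the RPE, fell by 1.36, Rdh5, a retinol dehydrogenase, by 0.98 and Stra6, the retinol receptor, by 0.95. Rpe65, the isomerase of the visual cycle, was 11.58, 12.36 and 11.82 in NT and 10.47, 10.47 and 11.48 in Sham, a difference of -1.11 that did not pass (adjusted p = 0.0621). Sham replicate 3 lay just under the lowest NT library for Rpe65. Lrat, which makes its ester substrate, differed by -1.26 (adjusted p = 0.067). The pigment cell genes Tyr (0.50), Pmel (0.47), Tyrp1 (0.28) and Mitf (-0.08) did not pass, nor did Best1 (0.26). Serpinf1, encoding the trophic factor PEDF, rose by 0.92.

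The mean level of the RPE list overlapped between the groups, at -0.54 to 0.45 around the NT mean in NT and -0.58 to 0.02 in Sham. How much RPE stayed on each dissected retina was not measured. In the 9 libraries of cell-treated eyes, Rgr was 8.09 to 11.29, also under the lowest NT library.

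Other genes with large falls were named by rank. Myoc, encoding myocilin, was 11.04, 11.79 and 11.16 in NT and 9.27, 9.55 and 10.15 in Sham. Lamb3, a laminin chain, fell by 1.66, Slc4a7, a bicarbonate cotransporter, by 1.45, Serpine3, a serine protease inhibitor, by 1.35 and Hk2, hexokinase 2, by 1.22. Slc4a7 was 12.10 to 12.46 in NT and 10.37 to 11.14 in Sham. Drd4, the dopamine receptor of photoreceptors, fell by 1.15, though it was picked after its values were seen.

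Some genes of energy metabolism fell. Of 29 glycolysis and lactate genes, 6 passed, each as lower, against 3.55% of all genes tested. Hk2, the hexokinase that photoreceptors favor, was 13.90, 13.94 and 14.19 in NT and 13.24, 12.49 and 12.64 in Sham. Pfkfb2 fell by 0.73, the lactate carriers Slc16a1 and Slc16a3 by 0.68 and 0.47, Aldoa by 0.50 and Pgam1 by 0.45. Hk1 (0.29), the more widespread hexokinase, and the glucose carrier gene Slc2a1 (0.04) did not pass. The count was 3 without NT replicate 1, NT replicate 3, Sham replicate 1 or Sham replicate 3. With either covariate it was 0 in limma, with 7 genes at an unadjusted p under 0.05 in each fit.

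Markers of inner retinal neurons were called at a rate near that of all genes or not at all. Of 18 bipolar cell genes, 1 passed (Nyx, 0.38), against 5.1% of all genes tested that passed as higher, and 0 of 23 amacrine and horizontal cell genes and 0 of 17 ganglion cell genes did in limma, with medians of 0.05, -0.07 and 0.03. Before adjustment, 1 higher and 4 lower amacrine and horizontal cell genes had a p under 0.05, as did 1 higher and 2 lower ganglion cell genes. Prkca, the rod bipolar kinase, differed by -0.48 (adjusted p = 0.0509). Pou4f1, of ganglion cells, was 6.26 to 6.43 in NT and 6.17 to 6.36 in Sham. Of 9 neuronal injury genes, 1 passed, Gadd45a (-0.43), while Sprr1a (0.65), Ecel1 (0.78) and Atf3 (0.45) did not pass although their groups were apart. Groups were apart as higher for 4 of the 9, against 16.6% of all genes tested. With the surface epithelium covariate the median of this list went from 0.31 to 0.03. In that limma fit the adjusted p was 0.876 for Sprr1a, 0.908 for Ecel1 and 0.656 for Atf3.

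Genes of trophic factors changed in both directions. Of 27 neurotrophic and growth factor genes, 9 passed as higher and 1 as lower. Bdnf, brain-derived neurotrophic factor, was the latter, at 7.77, 7.75 and 7.71 in NT and 6.65, 6.64 and 6.68 in Sham (adjusted p = 0.00126). Its SD was at most 0.03 in each group. Beside Fgf2, Edn2, Lif and Cntf above, Ednrb, the endothelin receptor of glia, rose by 1.07, Tgfb1 by 0.90 and Fgfr1 by 0.78. Vegfa (-0.34), Igf1 (0.27) and Ntrk2 (0.02) did not pass. Dusp4, a MAP kinase phosphatase, was 10.26 to 10.35 in NT and 9.21 to 9.32 in Sham and had the smallest adjusted p of the genes that fell (0.000993).

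Some genes of stress programs rose. Of 24 antioxidant genes, 5 passed as higher, against 5.1% of all genes tested, with the metallothionein gene Mt2A at 1.54, Hmox1, heme oxygenase 1, at 1.00, Nqo1 and Mt1 at 0.79 each and Txnrd1 at 0.38. Nfe2l2, Cat, Sod1 and Prdx1 differed by 0.10, -0.02, -0.01 and 0.01. The count was 2 without NT replicate 1, NT replicate 3 or Sham replicate 2. Of 14 iron genes, Cp and Hmox1 passed as higher, and Tfrc, the transferrin receptor through which cells take up iron, fell from 11.78 to 12.01 in NT to 10.75 to 10.92 in Sham. Fth1 (0.16) and Slc40a1 (0.09), for storage and export, did not pass. Of 15 heat shock entries, Bag3 (0.70) and Hspb1 (0.83) passed as higher and 1 of 2 entries named Hspa1a (-0.66) as lower.

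Immediate early genes, which respond to activity within minutes, changed in both directions. Of 19 tested, 5 passed as lower and 3 as higher. Nr4a1, an orphan nuclear receptor, was 10.28, 9.81 and 10.02 in NT and 9.05, 8.63 and 8.94 in Sham. Dusp1 fell by 0.79, Nr4a3 by 0.57, Ier2 by 0.53 and Fosb by 0.34, while Fosl1 rose by 0.68, Junb by 0.39 and Jund by 0.32. Fos (-0.25) and Egr1 (-0.73) did not pass. With 12 libraries in one fit 1 gene of the list passed as higher and 0 as lower in limma, with 2 lower at an unadjusted p under 0.05. Of 19 clock genes, Cry1 (-0.42) and Arntl (-0.46) passed as lower, against 3.55% of all genes tested, and Tef (0.37) as higher, against 5.1%. Tef did not pass in any fit with a library left out. The hour at which the eyes were taken is not given in the sources used here.

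Some genes of vessels and matrix rose. Of 33 extracellular matrix genes, 8 passed, each as higher. Col4a1, of basement membranes, was 9.32, 9.39 and 8.85 in NT and 9.88, 10.97 and 10.94 in Sham, Mmp2 rose by 0.97 and Sparc by 0.89. The fibroblast collagens Col1a1 (0.82), Col1a2 (0.78) and Col3a1 (0.73) did not pass. The count of this list ranged from 1 to 9 with 1 library left out, and Col4a1 passed in 1 of those 6 fits. The median of the list went from 0.59 to 0.19 with the surface epithelium covariate and 0 genes passed in limma, with 2 at an unadjusted p under 0.05 as higher, and with the lens covariate 1 passed. Of 20 endothelial genes, Vwf (0.83), Icam1 (0.94), Cdh5 (0.62) and Tek (0.47) passed as higher and Mfsd2a, a lipid transporter of the blood-retina barrier, as lower (-0.45). Mfsd2a did not pass in any fit with a library left out.

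Among cell cycle genes the D cyclins rose. Of 19 genes, 4 passed as higher. Ccnd2 was 8.60, 8.55 and 8.58 in NT and 9.78, 9.75 and 9.73 in Sham, an SD of 0.02 in each group (adjusted p = 0.000706), and Ccnd1 rose by 1.27. Cdk6 rose by 0.44 and Top2a by 0.50, while Mki67 (0.22), Ccnb1 (-0.04) and Cdk1 (-0.01), which mark dividing cells, did not pass. Cdk6 did not pass in any fit with a library left out, Ccnd1 passed in 3 of these 6 fits and Ccnd2 in all 6. Of 15 Notch and Müller reprogramming genes, Hes5 (-0.41) and Jag1 (-0.51) passed as lower, and Lin28a differed by -0.49 without passing.

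Markers of the front of the eye and of blood are given for comparison. Of 16 lens genes, Bfsp1 (1.52) and Bfsp2 (1.16), of the lens cytoskeleton, passed as higher, and the median was 1.30. Cryaa, the lens α-crystallin, was 10.73, 14.11 and 13.48 in NT and 14.31, 15.17 and 14.22 in Sham, with NT replicate 1 far under the other 5 libraries. Of 10 tested genes of cornea and surface epithelium, Epcam (0.67) passed, and the median was 0.80. Krt12, the corneal keratin, was 6.73, 9.18 and 9.09 in NT and 9.09, 10.95 and 10.33 in Sham.

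Several DEGs outside the lists belong to such tissues. Krt13 and Krt4, keratins of wet surface epithelia, rose by 1.82 and 1.59, the mucin gene Muc4 by 1.79 and Ppl, of the cornified envelope, by 1.61. Krt13 was 7.47, 8.45 and 7.52 in NT and 9.07, 10.62 and 9.20 in Sham and passed in 1 of 6 fits with a library left out. Of 7 skeletal muscle genes and 2 erythrocyte genes 0 passed in limma, with 1 muscle gene, as lower, at an unadjusted p under 0.05, and the Y-linked genes Eif2s3y and Kdm5d differed by -0.07 and 0.02.

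The largest rises include genes of less settled place in the retina. Lgi2, a secreted protein of the LGI family, had the smallest adjusted p of all genes (0.000109), with 8.58, 8.66 and 8.56 in NT and 10.46, 10.51 and 10.42 in Sham. Lad1, an anchoring filament protein of basement membranes and epithelia, was 7.68, 7.99 and 7.40 in NT and 9.76, 9.90 and 9.90 in Sham. Chi3l1, a chitinase-like protein of reactive glia and macrophages, rose by 2.14 and Mlf1 by 2.06. These 4 genes passed under all 16 alternatives, covariates included.

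Prss56, a serine protease of Müller glia, was 8.29, 7.91 and 8.08 in NT and 9.22, 10.72 and 9.92 in Sham and passed in 3 of 6 fits with a library left out. Fcrl2, an Fc receptor-like gene, was 5.45, 5.25 and 5.12 in NT and 7.84, 6.17 and 7.47 in Sham and passed in 2. LOC100911034 rose by 1.73 (adjusted p = 0.000993). The spread within Sham was thus wide for Prss56 and Fcrl2 (SD 0.75 and 0.88, n = 3) and narrow for Lgi2 and Lad1 (0.05 and 0.08).

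The libraries of the cell-treated eyes, which also received NaIO3 and an injection, give levels of the same genes beside the Sham values, with no test. Gfap was 12.80 to 13.53 in Sham and 12.71 to 14.13 over those 9 libraries, Il4r 10.63 to 10.80 and 10.00 to 11.40, and Lad1 9.76 to 9.90 and 9.48 to 10.40, all above the NT ranges.

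**Figure D4:**
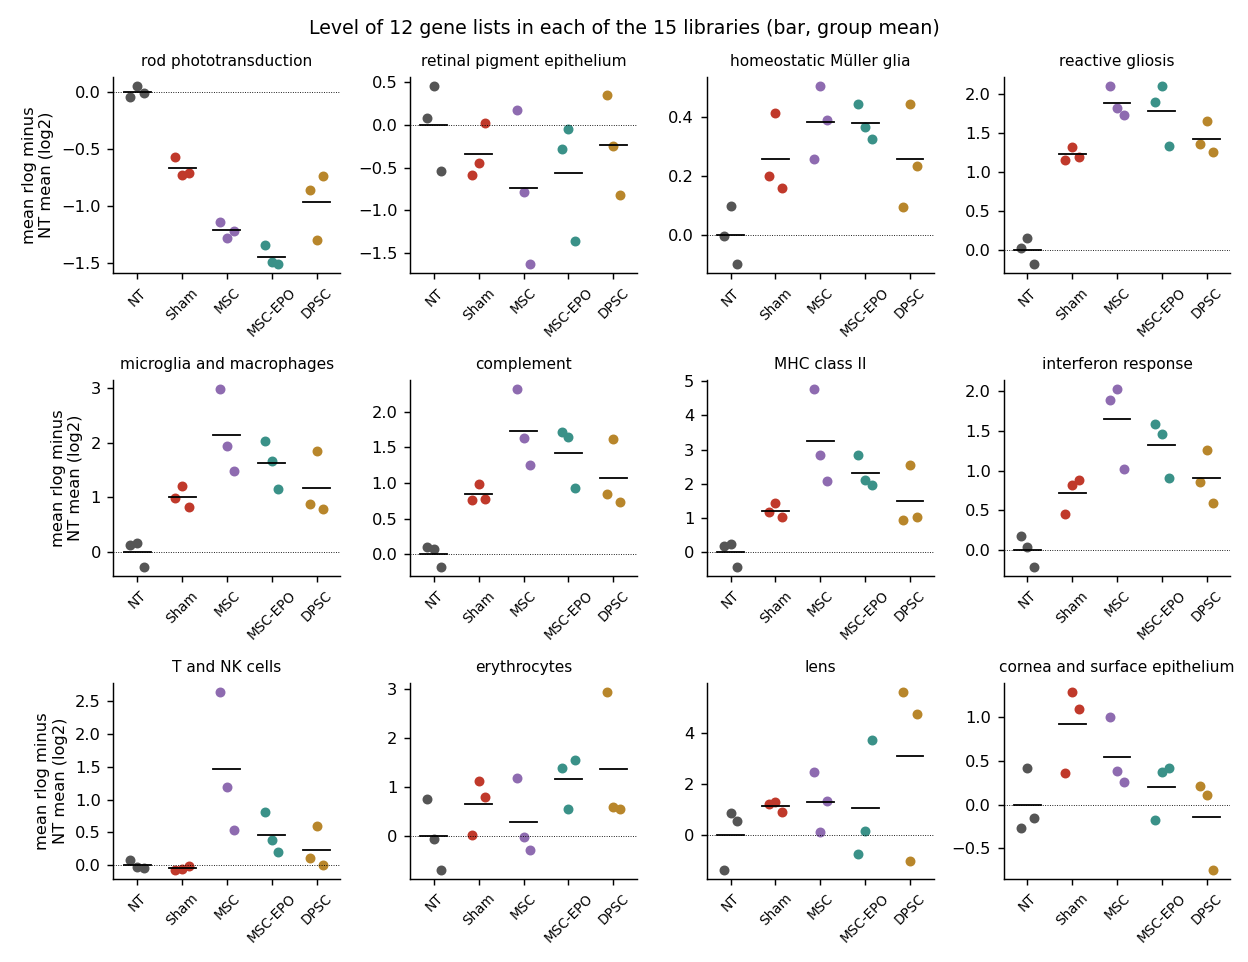
Mean rlog of 12 gene lists minus the NT mean (log2) in each of the 15 libraries, with a bar at each group mean of 3 libraries. In Sham, the rod list lies at -0.73 to -0.57 and the gliosis list at 1.16 to 1.33, both clear of NT, while the RPE list and the cornea and surface epithelium list overlap NT, and the T and NK cell list stays within -0.07 and -0.01.

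The number of calls depended on the libraries and the fit used. Of the 177 DEGs, 74 that were higher and 14 that were lower were DEGs again with each of the 6 libraries left out in turn, and all 177 kept their direction in each of the 16 alternatives. With NT replicate 3 left out, 89 DEGs were higher, and without Sham replicate 1, 193. Fits that added the cell-treated libraries, whose spread enters the error, called 45 higher and 9 lower with 12 libraries and 41 and 4 with 15. Of the DEGs, 37 that were higher passed in all 14 alternatives without a covariate, among them Gfap, Il4r, C3, Socs3, Lcn2, Lgals3 and Gnb3, and 3 that were lower, Esrrb, Tfrc and Cdr2. Among lists not yet given by setting, 5 to 7 trophic factor genes passed as higher with 1 library left out, 1 to 3 cell cycle genes and 1 to 3 endothelial genes. With the surface epithelium or the lens covariate, the counts were 1 and 2 for trophic factors, 1 in each fit for the cell cycle, and 0 (3 at an unadjusted p under 0.05 in limma) and 1 for endothelium. On the MHC class II list 0 passed in either covariate fit of limma, and 6 had an unadjusted p under 0.05 as higher in each. With the lens covariate 0 interferon genes passed in limma and 28 had an unadjusted p under 0.05. In that fit 4 complement genes, 10 gliosis genes and 3 genes of the signaling list passed. Of the antioxidant genes 0 passed in limma with either covariate, and 4 (epithelium) and 7 (lens) had an unadjusted p under 0.05. Of the homeostatic Müller, the chemokine and the immediate early genes 0 passed in limma with either covariate. Those with an unadjusted p under 0.05 as higher were 1 and 3, 3 and 5, and 3 and 5 in that order (epithelium, then lens). As lower they were 0 and 1 for Müller genes and 5 and 6 for immediate early genes.

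**Figure D5:**
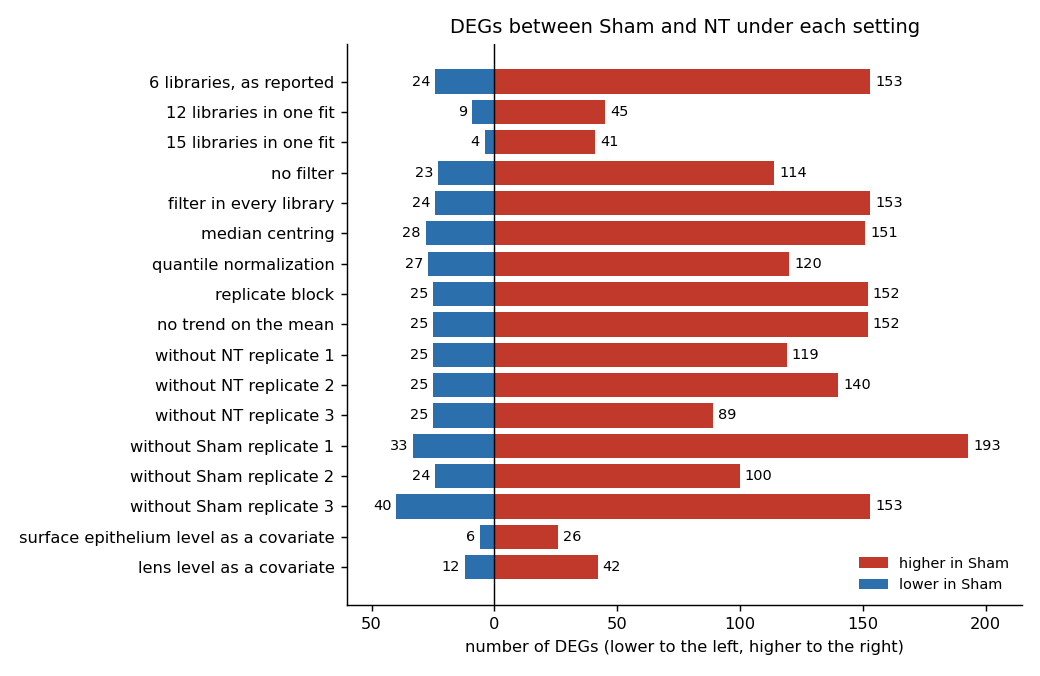
Number of DEGs lower (blue, to the left) and higher (red, to the right) in Sham under the reported fit of 6 libraries and 16 alternatives. DEGs that are higher outnumber those that are lower in each setting, and the counts run from 26 to 193 and from 4 to 40.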

How the data were processed

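RNA of 15 rat retinas was sequenced, and 6 libraries (3 NT, 3 Sham) were compared here. Per the study's methods and the labels, the authors quantified reads with Salmon (1.1.0) against Rnor_6.0, summed them to genes, and deposited rlog values, which are log2 values normalized for library size and shrunken by DESeq2. The files used hold no read counts. Sequencing depth per library is therefore unknown, no counting interval was given, and rlog values, which carry no correction for gene length, were not compared between genes. A count test could not be used on these values. The 15 per-sample columns of the series table and its column that marks genes were not used.

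Groups came from the sample labels. Genes with a mean rlog of at least 3.32 over the 6 libraries were tested in limma (3.58.1, R 4.3.3) with a trend of the variance on the mean. P-values were two-sided and adjusted by the Benjamini-Hochberg method over 15382 genes, and "passed" means an adjusted p under 0.05. For one gene alone, an exact permutation test of 3 against 3 libraries could not go below 0.1. On simulated data for this comparison with 15382 genes, 91 of 100 genes changed by 1 and 99 of 100 changed by 2 on the log2 scale were recovered, and 13 unchanged genes were called. The simulated noise was normal and independent between genes. Real libraries can hold variation that many genes share, so these rates may not apply to them.

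Genes were named by fixed rules, namely the 15 largest rises and 10 largest falls among DEGs and the 5 smallest p in each direction. Others were named as members of 40 hand-written lists (745 entries). Which members of a list are named was not fixed throughout, and some with a small p are left out. Genes named outside these rules and lists are said in the text to be outside the lists or picked after their values were seen. The rules and lists were chosen with earlier results of these data known, so a list's count is a description and no test of the list. Some genes are on more than a single list, such as Gbp2 on those of gliosis and interferon, so list counts are not independent. A list's level is the mean of its tested genes, and the summed level is the log2 of their sum on the linear scale. Correlations of the deviations of same-numbered NT and Sham libraries were -0.247, 0.156 and -0.0588, so the numbers were not taken to pair the libraries. The 14 alternatives changed the libraries in the fit, the filter, the normalization, the block or the variance trend, or left out 1 library, and 2 fits with a covariate were added after the data had been seen. Promoter windows were matched by symbol to RefSeq (GRCr8) and read with Python (3.11.15). Values of some genes are not reported here.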

Additional observations from a re-analysis of the deposited data

How the results depend on the processing

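The 177 DEGs kept their direction under all 16 alternatives, while the number of calls did not hold. With 12 libraries in one fit, 45 DEGs were higher and 9 lower, and 92 and 70 genes passed. With 15 libraries these counts were 41, 4, 87 and 51. Without the filter on low values 413 and 306 genes passed. With the surface epithelium level as a covariate, 26 DEGs were higher and 6 lower, and 27 and 6 genes passed. With the lens level they were 42, 12, 55 and 30. The cause of these changes was not tested. Leaving out 1 library gave 89 (without NT replicate 3) to 193 (without Sham replicate 1) DEGs that were higher and 24 to 40 that were lower, and 277 to 623 and 149 to 342 genes that passed. Without Sham replicate 2 there were 100 DEGs that were higher, and without Sham replicate 3 there were 40 that were lower. With the replicate block 152 DEGs were higher and 25 lower, and 617 and 375 genes passed. Not every library correlated best with its own number (NT replicate 3 with Sham replicate 1, 0.362). Of the genes that passed, 59.0% were higher, against 50.7% after quantile normalization and 81.8% with the epithelium covariate. Medians near 0 changed sign for iron handling (-0.0022 after quantile normalization, -0.0026 with the epithelium covariate), Notch and Müller reprogramming (-0.0075 after quantile normalization), clock genes (0.0079 with the epithelium covariate) and B and plasma cells (0.0345 with the lens covariate). Smaller medians also changed sign, among them those of bipolar cells (-0.0394) and ganglion cells (-0.0756) without Sham replicate 2. That of immediate early genes was -0.0874 after quantile normalization. The median of the cornea and surface epithelium list went from 0.80 to -0.0836 when its own level was the covariate. Over 38 lists, 563 list medians under an alternative moved by less than the spread between libraries and 39 by more. Another 6 changed sign from a main median larger than that spread. Sign changes of smaller main medians are counted among the 563 and the 39. Among values of named genes, 2093 kept their side of the threshold, 605 lost the call and 21 gained it. Shrunken values, 3 libraries a group and unknown depth limit what could be detected.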
